A study of Mus musculus with 4 samples.

Results

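Chemokines are small secreted or membrane-bound proteins that steer the movement of leukocytes, and they act through G protein-coupled receptors on the responding cell. Their names follow the spacing of the first cysteines: CC, CXC, CX3C and XC ligands pair with receptors called Ccr, Cxcr, Cx3cr and Xcr, and the atypical receptor Ackr3 binds and removes ligand without the usual G protein signal. In tumours they are known for bringing in monocytes, neutrophils and lymphocytes, and for holding macrophages in place. The 33 genes described here are 23 ligands and 10 receptors chosen by symbol, out of 55472 entries in the gene table. All 33 symbols were found, and each gene was followed from the cells that carried the ligand transcript to those that carried the receptor transcript.

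The cells came from mammary tumours of FVB females aged 13 to 14 weeks with the genotype MMTV-PyMT::K14Cre::Rosa-tdTomato. In this model the MMTV promoter drives the PyMT oncogene in mammary epithelium, so the tumours arise in several glands of 1 animal, and no healthy gland was analysed here. Cre under a keratin 14 promoter switches on the tdTomato reporter, and all animals carried both alleles. There were 4 tumours from 3 mice: tumour 1 was pooled from multiple glands of mouse 1, tumour 2 was an inguinal gland of mouse 2, and mouse 3 gave tumour 3 from a thoracic and tumour 4 from an inguinal gland.

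Tumours were dissociated with Liberase, cleared of red and dead cells and profiled by droplet single-cell RNA-seq, in which a unique molecular identifier (UMI) marks each captured transcript. The 4 libraries held 8434 to 9580 barcodes and 20281799 to 39370565 UMIs, with medians of 1922.5 to 3281 UMIs per barcode. Filtering left 36138 cells, and 623 barcode sequences occurred in more than 1 library. Cells were placed in classes by raw UMIs of genes outside the list: Krt5 and Krt14 for basal, Col1a1 and Col3a1 for fibroblast, C1qa and C1qb for macrophage, Cdh5 and Pecam1 for endothelial, Cd3g and Trbc2 for T, and Krt8 and Krt18 for luminal cells that passed none of the other gates. This gave 938 basal, 1512 fibroblast, 3005 macrophage, 625 endothelial, 355 T and 20581 luminal cells. Another 163 cells passed several non-luminal gates and were set apart, as a treatment of doublets without a doublet caller, and 8959 cells passed no gate. Levels are given as CPM, the UMIs of a gene divided by all UMIs of the class and scaled to 1000000. No adjustment between genes was made, and the tests compared classes and not genes.

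Summed check markers that no gate used were highest in their own class in 4 of 4 tumours for fibroblast, macrophage, endothelial and T cells, and in 3 of 4 for luminal and basal cells. The exception in both was tumour 2. Of its 129 basal cells 89.1% also passed the luminal gate, their median depth was 6183 UMIs, and their luminal check markers stood at 23073 CPM, above the luminal class itself. Their basal check markers stood at 609 CPM, against 10.5 CPM in luminal cells and 760 CPM in fibroblasts of tumour 2. The basal class of tumour 2 therefore carried luminal as well as basal markers, and its label covers only part of this. The 4 calls of members in basal cells are given also without the basal sum of mouse 2, and basal levels by tumour, so that tumour 2 can be set aside. Other cells' markers stood in the basal class too. Macrophage check markers reached 1326, 410.1, 2017 and 1064 CPM in basal cells of tumours 1 to 4. In luminal cells they stood at 104 to 236 CPM. Of the 5 macrophage markers 2, 3, 1 and 2 had 0 UMIs in the basal cells of these tumours. Fibroblast check markers reached 143, 5.74, 397 and 40.5 CPM in basal cells, against 7.92 to 45.4 CPM in luminal cells. Luminal check markers were also present in the fibroblast, macrophage, endothelial and T classes, at 2564 to 10279 CPM, and markers of natural killer cells stood at 119 to 237 CPM in the T class. What part these transcripts had in the levels below was not tested, except where the value without luminal-positive cells is given.

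Macrophages and T cells had the highest ligand levels relative to all UMIs of the class. In UMIs the order was different, with 26712 ligand UMIs in macrophages, 9141 in luminal cells, 6434 in fibroblasts and 2543 in T cells. The 23 ligands together reached 3474, 3890, 3341 and 3482 CPM in macrophages of tumours 1 to 4, and 3622, 3408, 3058 and 2119 CPM in T cells. Fibroblasts followed with 1852, 1851, 1399 and 1037 CPM, endothelial cells with 343 to 675 CPM and basal cells with 410, 178, 241 and 162 CPM, against 102 to 127 CPM in luminal cells. The 10 receptors were concentrated in macrophages, with 756 to 896 CPM, followed by T cells with 85.7 to 184 CPM, and reached 7.06 to 11.9 CPM in luminal cells. At least 1 ligand UMI was seen in 94.3% of macrophages, 82.9% of fibroblasts and 82.3% of T cells, against 25.4% of luminal cells, although luminal cells were the deepest at a median of 3295 UMIs against 2102, 2701.5 and 1774. At least 3 different ligands were seen in 57.1% of macrophages, 19.3% of fibroblasts and 7.04% of T cells.

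**Figure D1:**
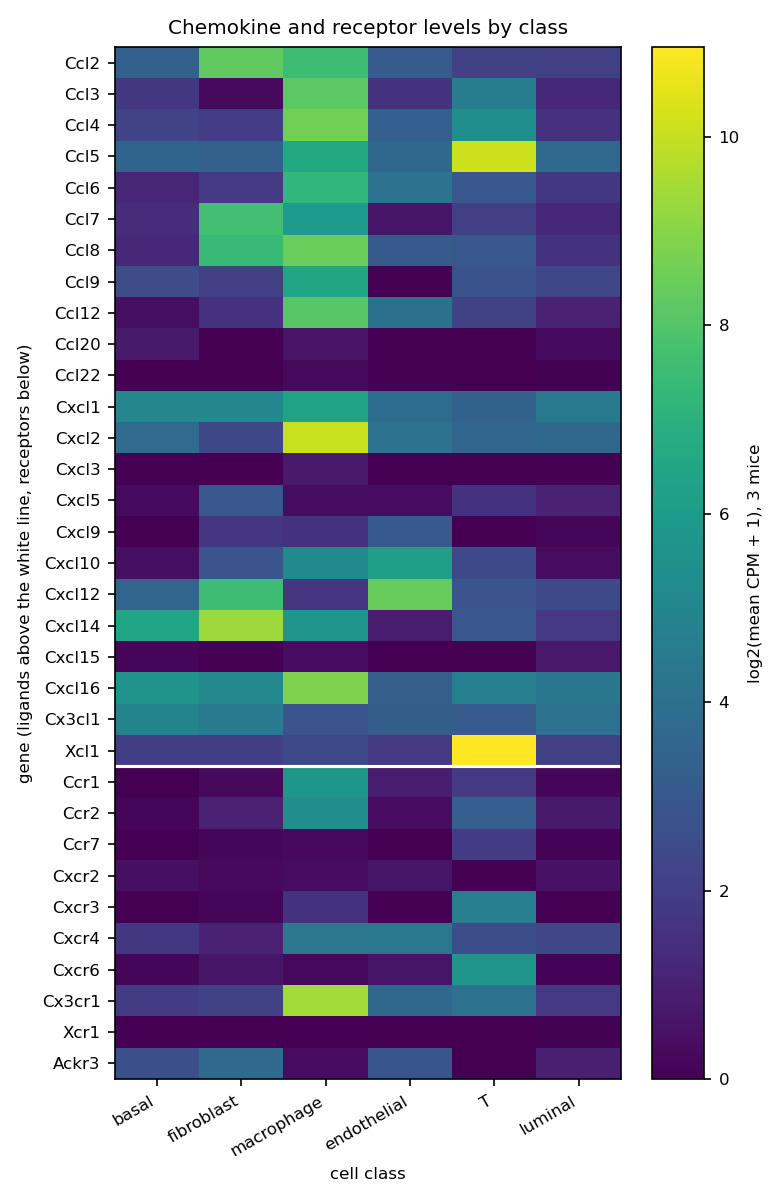
Mean level of each of the 33 genes (rows, ligands above the white line and receptors below) in each cell class (columns), as log2 of the mean CPM over 3 mice plus 1. The brightest squares are Xcl1 and Ccl5 in T cells and Cxcl2 in macrophages, and the luminal column does not exceed 21.4 CPM (Cxcl1).

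For tests, UMIs were summed per mouse and class and fitted in edgeR with mouse as a block, and 23 of the 33 genes passed the filter on low counts among 10301 genes. Because a gene could pass through its highest class alone, the counts that follow describe the list and do not show that it stands apart. Macrophages were higher than luminal cells for 19 of the 23 and lower for 1, where 23.4% of all genes were called higher and 20.4% lower. Fibroblasts were higher for 8 and lower for 1, against 26.6% and 22.5% of all genes. T cells were higher for 8 and lower for 0, against 9.79% and 6.78%. Endothelial cells were higher for 7 and lower for 2, against 18% and 15%, and basal cells were higher for 4 and lower for 0, against 4.76% and 2.47%. Without mouse 3 the numbers higher were 5 in T cells, 4 in endothelial cells and 2 in basal cells, and without the basal sum of mouse 2 the basal number was 3. The median log2 fold change over luminal cells was 5.69 in macrophages, 2.41 in T cells, 0.88 in endothelial cells, 0.72 in fibroblasts and 0.17 in basal cells, where the medians of all genes lay between -0.07 and -0.01.

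A gene was said to have 1 leading class when its highest class was called above each of the other 5. This held for 17 of the 23 genes, where 20.9% of all genes met it. Macrophages led for 12 (6% of all genes), namely Ccl3, Ccl4, Ccl6, Ccl8, Ccl9, Ccl12, Cxcl1, Cxcl2, Cxcl16, Ccr1, Ccr2 and Cx3cr1. T cells led for 4 (2.07%), namely Ccl5, Xcl1, Cxcr3 and Cxcr6, and fibroblasts led for Cxcl14 (7.64%). Ccl2, Ccl7, Cxcl10, Cxcl12, Cx3cl1 and Cxcr4 had no single leading class.

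The monocyte chemoattractants Ccl2, Ccl7, Ccl12 and Ccl8 lie in 1 stretch of mouse chromosome 11 of 81.2 kb (GRCm38, 82035571 to 82116799), but their transcripts were split between macrophages and fibroblasts. Ccl12 was a macrophage transcript. Its level in macrophages was 371, 210.2, 257 and 243 CPM in tumours 1 to 4, against 0.532 to 1.90 CPM in luminal cells, and it averaged 277 ± 83.6 CPM in macrophages and 1.04 ± 0.746 CPM in luminal cells (SD, n = 3 mice). Fibroblasts stayed at 1.38 to 3.04 CPM, so the groups did not overlap, and the log2 fold change of macrophages over luminal cells was 8.49 (SE 0.26, adjusted p 4.24e-18 by edgeR, higher in 3 of 3 mice).

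Ccl2, which draws monocytes through Ccr2, was carried by both stromal classes. Fibroblasts held 167, 614, 131 and 173 CPM, with a mean of 309.8 ± 264 CPM, and macrophages held 223, 158, 165 and 193 CPM, with a mean of 186 ± 33.3 CPM. Luminal cells held 2.35 to 5.77 CPM. The fibroblast value of tumour 2 stood far above the other 3, whereas the macrophage values were close together. Ccl2 was higher in fibroblasts than in luminal cells by 6.48 (SE 0.46, adjusted p 3.02e-11) and in macrophages by 6.10 (SE 0.45, adjusted p 5.06e-11) on the log2 scale, and the difference of fibroblasts over macrophages, 0.39 (SE 0.38, adjusted p 0.444), did not exceed the spread. In tumour 3, 160 of the 274 Ccl2 UMIs of fibroblasts came from 1 cell. Without mouse 2, macrophages became the leading class of Ccl2.

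Ccl7, another Ccr2 ligand, followed the same split. Fibroblasts held 89.4, 455, 32.6 and 112 CPM, with a mean of 202 ± 219 CPM, and macrophages held 59.4, 75.8, 69.0 and 57.0 CPM, with a mean of 66.4 ± 8.51 CPM. Tumour 2 was again the highest for fibroblasts, and 40.5% of its fibroblasts had a Ccl7 UMI against 5.35% to 13.6% in the other tumours. Fibroblasts over macrophages gave a log2 difference of 1.03 (SE 0.42, adjusted p 0.0505), which missed the threshold. Fibroblasts became the single leading class of Ccl7 in 7 of 14 alternative settings, among them the fit without mouse 3. Within fibroblasts Ccl7 was found in 43.5% of the cells with a Ccl2 UMI and in 8.73% of those without, at median depths of 3100 and 2660 UMIs. Within macrophages the shares were 19.9% and 3.09%, at 2099 and 2103 UMIs, and Ccl12 was found in 40.6% of macrophages with a Ccl2 UMI and in 16.2% of those without.

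Ccl8, in the mouse a ligand of Ccr8, had macrophages as leading class and fibroblasts second. Macrophages held 288, 311, 509 and 348 CPM, fibroblasts held 249.9, 149, 126 and 91.1 CPM, and luminal cells held 1.01 to 5.77 CPM. Macrophages were above fibroblasts in each tumour, and the log2 difference of fibroblasts over macrophages was -1.34 (SE 0.30, adjusted p 0.000804, 3 of 3 mice). Macrophages were no longer the single leading class of Ccl8 when DESeq2 replaced edgeR or when mixed cells were assigned by gate order. Ccr2, the receptor of monocytes for Ccl2, Ccl7 and Ccl12, was highest in macrophages at 35.5, 66.6, 19.8 and 28.5 CPM, a mean of 41.9 ± 22.2 CPM. T cells held 0, 5.43, 25.3 and 11.9 CPM of Ccr2, from 11 UMIs in all (0 UMIs in tumour 1 allow up to 18.4 CPM), and luminal cells 0.271 to 0.982 CPM. Macrophages were above T cells by 1.78 (SE 0.54, adjusted p 0.0239), and they were not the single leading class of Ccr2 without mouse 1, without mouse 2 or without luminal-positive cells. The rise of Ccr2 in T cells over luminal cells (4.12, adjusted p 0.000783) was lost without mouse 3 (2.19, adjusted p 0.549). Macrophage check markers stood at 251, 59.7, 870 and 326 CPM in T cells of tumours 1 to 4. In luminal cells they stood at 104 to 236 CPM. Of the 5 markers 4, 3, 0 and 1 had 0 UMIs in these T cells, so 1 gene gave the tumour 1 value. The part of these markers in the T cell calls of Ccr2, Ccl3, Ccl4 and Cx3cr1 was not tested.

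**Figure D2:**
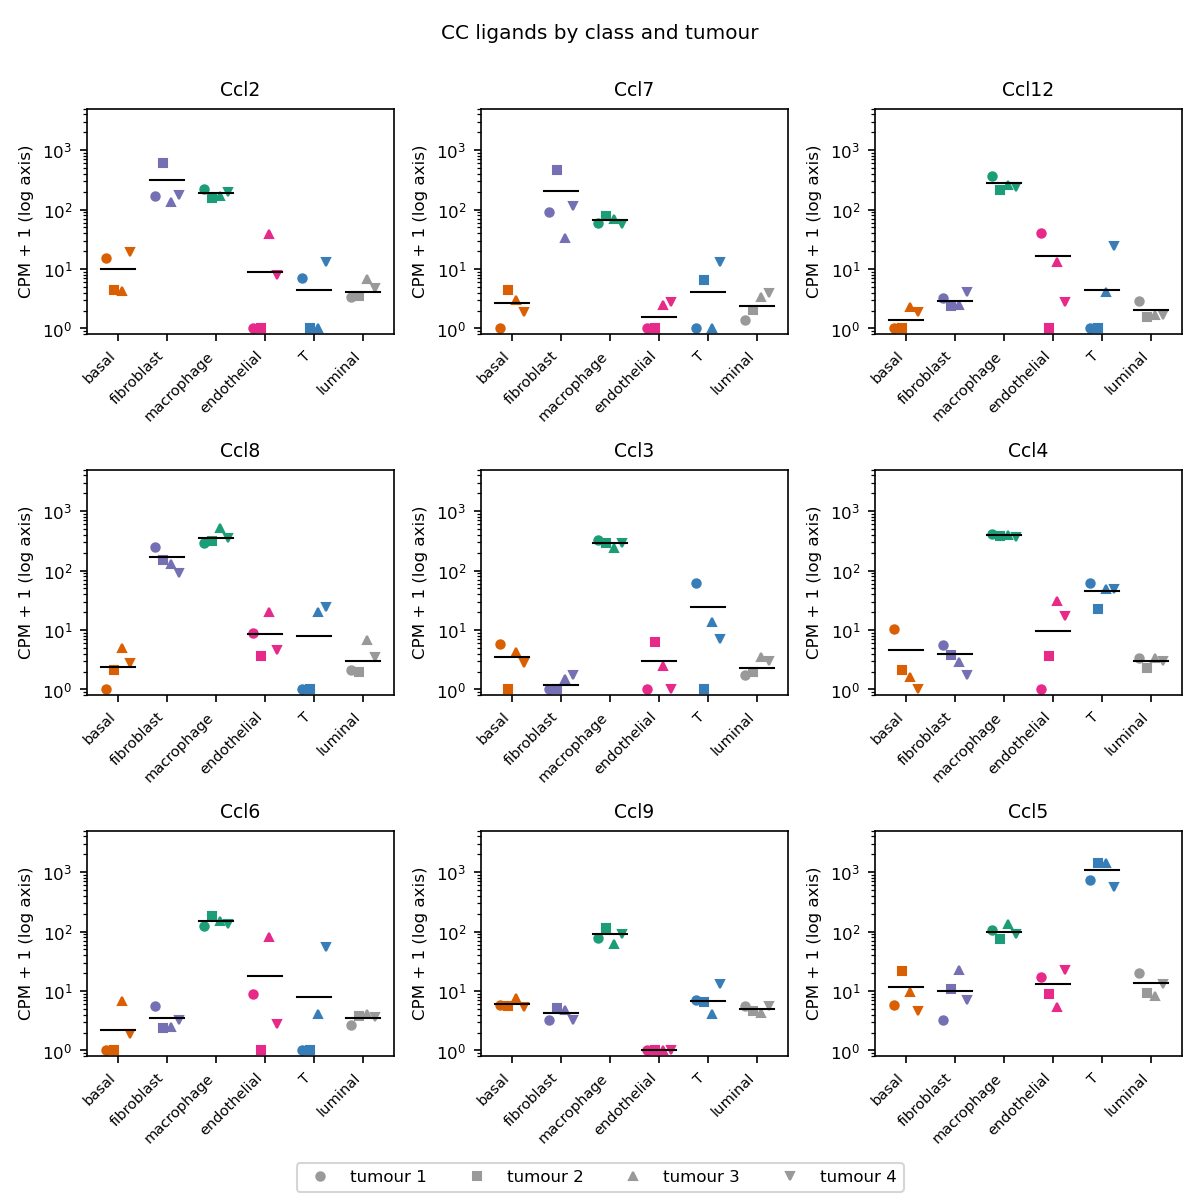
Levels of 9 CC ligands in each class, as CPM plus 1 on a log axis, with 1 symbol per tumour (circle, square, upward and downward triangle for tumours 1 to 4) and a bar for the mean over 3 mice. Fibroblasts and macrophages share Ccl2, Ccl7 and Ccl8, macrophages are the highest class in each tumour for Ccl12, Ccl3, Ccl4, Ccl6 and Ccl9, and T cells lie above macrophages for Ccl5.

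A second CC cluster on chromosome 11 spans 139 kb (83525778 to 83664683) and holds Ccl5, Ccl9, Ccl6, Ccl3 and Ccl4, CC ligands that attract monocytes and lymphocytes. Ccl3 and Ccl4 were macrophage transcripts with similar levels in the 4 tumours. Ccl3 held 320.0, 284, 242 and 286 CPM in macrophages, against 0.724 to 2.56 CPM in luminal cells, and Ccl4 held 412, 373, 394 and 365 CPM against 1.33 to 2.44 CPM. The macrophages of each tumour stood above every other class. The log2 fold changes of macrophages over luminal cells were 7.84 (SE 0.31, adjusted p 4.44e-16) for Ccl3 and 7.92 (SE 0.27, adjusted p 1.94e-17) for Ccl4. Ccl4 also rose in T cells, at 61.2, 21.7, 47.5 and 47.5 CPM (log2 fold change 4.54 over luminal cells, SE 0.47, adjusted p 8.28e-08). Within macrophages Ccl4 was found in 52.5% of the cells with a Ccl3 UMI and in 22.5% of those without, at median depths of 2151 and 2058 UMIs. The T cell call of Ccl3 rested on 15 UMIs, 10 of them from 1 cell of tumour 1, and was lost without mouse 1 (2.16, adjusted p 0.234). The endothelial call of Ccl4 rested on 30 UMIs and was lost without mouse 3 (0.03, adjusted p 0.994). Macrophage check markers stood at 328 to 1467 CPM in endothelial cells, against 104 to 236 CPM in luminal cells and 32074 CPM or more in macrophages. Of the 5 markers 3, 1, 0 and 2 had 0 UMIs in endothelial cells of tumours 1 to 4. The part of these markers in the endothelial calls of Ccl4, Ccl6, Ccl12 and Cx3cr1 was not tested.

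Ccl6 and Ccl9 are rodent ligands of Ccr1. In macrophages Ccl6 held 125, 182, 148 and 135 CPM, against 1.72 to 3.09 CPM in luminal cells, and Ccl9 held 77.5, 115, 61.6 and 89.0 CPM against 3.27 to 4.66 CPM. Both had macrophages as leading class, with log2 fold changes over luminal cells of 6.17 (SE 0.31, adjusted p 4.09e-14) for Ccl6 and 4.72 (SE 0.18, adjusted p 2.13e-15) for Ccl9. Macrophages held only 49.5% of the Ccl6 UMIs and 44.7% of the Ccl9 UMIs, and cells outside every gate held 35.3% and 28.1%. The endothelial call of Ccl6 cannot be read as a class level: 50 of the 53 UMIs in tumour 3 came from 1 cell, and the call was lost when each gene was counted without its highest cell. Endothelial cells had 0 Ccl9 UMIs among 1745867, which limits the level to 1.72 CPM at 3 UMIs over the group, at least 2.35-fold lower than the luminal mean of 4.05 CPM (adjusted p 0.00272 by edgeR, or 0.131 without mouse 3).

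Ccl5, a chemoattractant of T cells and monocytes that cytotoxic lymphocytes store and release, was led by T cells. T cells held 746, 1427, 1431 and 570 CPM, macrophages held 106, 74.6, 134 and 89.4 CPM, and luminal cells held 7.20 to 19.0 CPM. T cells were above the other classes in each tumour. The log2 fold change over luminal cells was 6.60 (SE 0.33, adjusted p 1.51e-13) in T cells and 3.33 (SE 0.29, adjusted p 1.26e-09) in macrophages. The macrophage level came from few cells: 3.63% of macrophages had a Ccl5 UMI, against 31.0% of T cells and 1.20% of luminal cells, and in tumour 3 a single cell gave 255 of 366 UMIs. Ccr1, the receptor of Ccl3, Ccl5, Ccl6 and Ccl9, held 69.3, 54.9, 34.1 and 49.6 CPM in macrophages. Luminal cells had 15 Ccr1 UMIs in 20581 cells, and the macrophages of each tumour exceeded every other class (log2 fold change 8.22 over luminal cells, SE 0.30, adjusted p 8.70e-16).

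Cxcl1, Cxcl2, Cxcl3 and Cxcl5 attract neutrophils through Cxcr2, and with Cxcl15, also a neutrophil attractant, they form a cluster on chromosome 5 of 147 kb (90759360 to 90905938). The promoter stretches of the 2 members with abundant transcripts are shown because both hold the pattern GGG, any 2 bases, TTTCC, or its reverse complement GGAAA, any 2 bases, CCC, a form of the kB motif that binds NF-kB in background knowledge. Capitals mark the matches. They lie on the plus strand of GRCm38.p6, at chr5:90891135-90891204 for Cxcl1 and chr5:90903789-90903858 for Cxcl2, with sequence from RefSeq.
Cxcl1: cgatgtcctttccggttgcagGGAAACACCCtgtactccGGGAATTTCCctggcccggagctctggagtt
Cxcl2: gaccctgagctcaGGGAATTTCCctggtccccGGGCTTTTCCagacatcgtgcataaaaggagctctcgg
In the 250 bases before the start, searched on both strands, the pattern occurred in 464 of 32851 promoters (1.41%) and in 5 of the 26 list members with an entry: Cxcl1, Cxcl2, Cxcl3, Ccl9 and Ccl20. A match describes letters and not binding.

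Cxcl2 was a macrophage transcript and Cxcl1 a broad one. Cxcl2 held 829, 1430.3, 743 and 1087 CPM in macrophages, a mean of 1049.8 ± 331 CPM, against 9.59 to 17.9 CPM in luminal cells. The groups were far apart, with a log2 fold change of 6.79 (SE 0.30, adjusted p 2.75e-15, 3 of 3 mice), and macrophages held 75.9% of all Cxcl2 UMIs. Cxcl1 held 56.1, 121, 55.0 and 76.2 CPM in macrophages, against 12.7, 30.5, 23.7 and 18.8 CPM in luminal cells. Tumour 2 was highest in both classes. Macrophages were above luminal cells within each tumour, with a log2 fold change of 2.15 (SE 0.20, adjusted p 3.96e-09), and basal, fibroblast, endothelial and T cells did not pass the test against luminal cells. Because luminal cells were the most numerous, they held 60.7% of the Cxcl1 UMIs, 1952 of 3214, and macrophages held 17.7%. In macrophages with a Cxcl1 UMI 82.4% also had Cxcl2, against 37.8% of those without, at median depths of 2382 and 2073.5 UMIs.

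The other neutrophil attractants were near the limit of detection. Cxcl3 had 7 UMIs in all cells, 5 of them in macrophages. Cxcl5 had 144, with the highest mean in fibroblasts at 6.94 ± 0.10 CPM against 1.08 ± 0.535 CPM in luminal cells. Cxcl15 had 42, of which 34 lay in luminal cells. Cxcr2, their receptor on neutrophils, had 52 UMIs in all, of which 36 lay in luminal cells, and its highest level was 3.53 CPM, from 2 UMIs in endothelial cells of tumour 4. Neutrophil check markers also stood highest there, at 1346 CPM, against 10.9 to 225 CPM in the other classes and tumours. Outside the gates 6 cells had 2 or more UMIs of the neutrophil genes Csf3r and Retnlg.

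**Figure D3:**
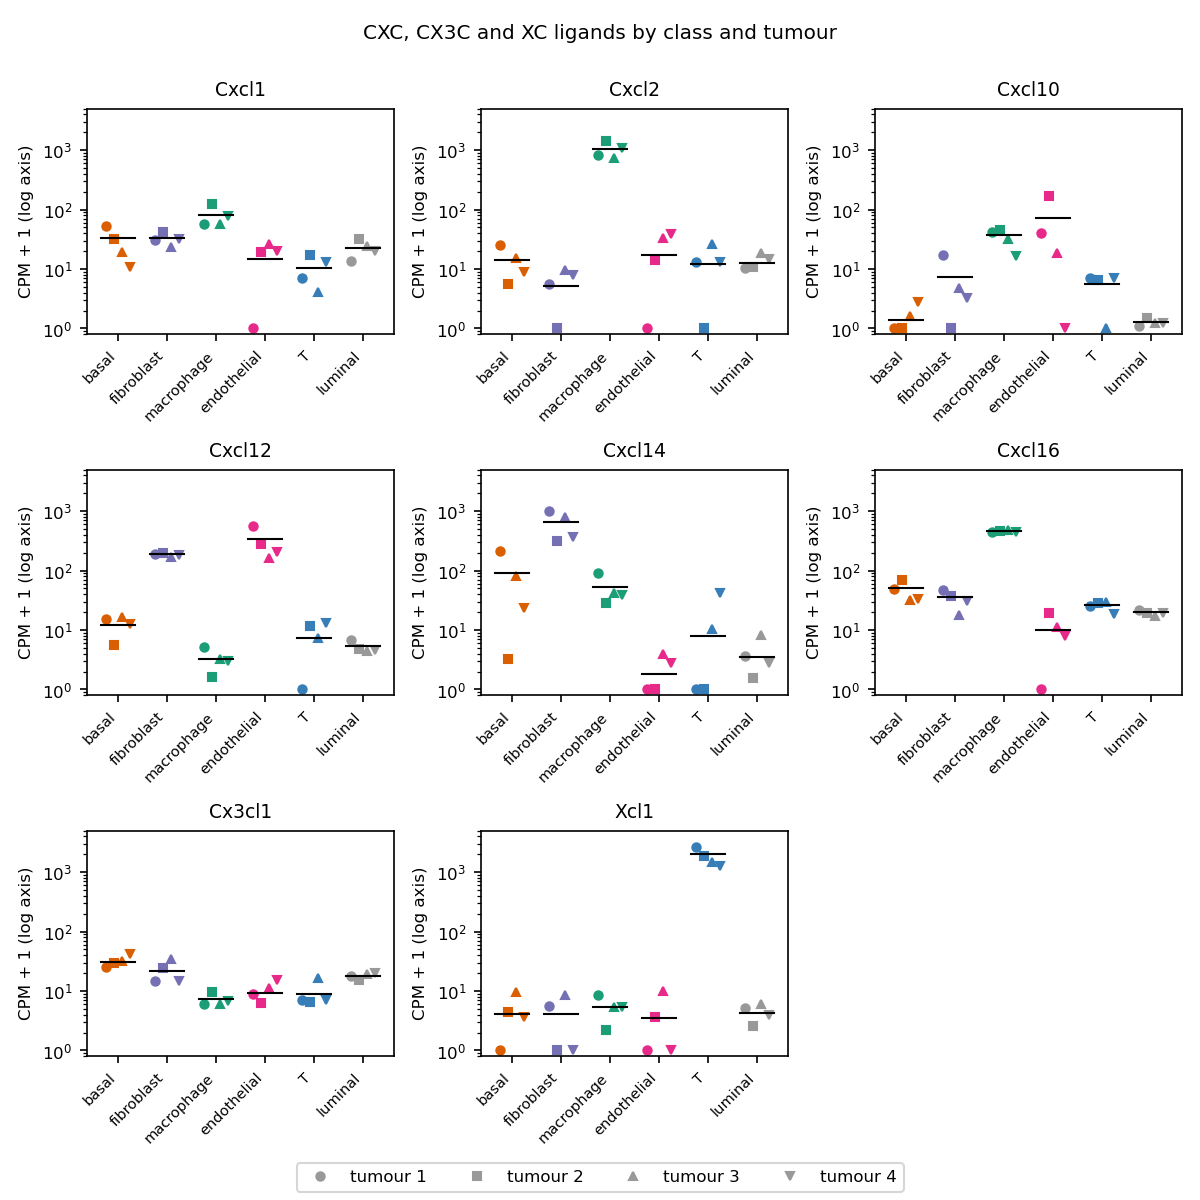
Levels of 8 CXC, CX3C and XC ligands in each class, as CPM plus 1 on a log axis, with 1 symbol per tumour and a bar for the mean over 3 mice. Cxcl2 and Cxcl16 peak in macrophages and Xcl1 in T cells, and Cxcl12 is shared by endothelial cells and fibroblasts. All 8 ligands are detected in each of the 6 classes.

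Cxcl9 and Cxcl10 are interferon-induced ligands of Cxcr3, the receptor of activated T cells. Cxcl10 held 40.4, 43.8, 30.5 and 15.2 CPM in macrophages, and 39.7, 167, 17.9 and 0 CPM in endothelial cells (0 UMIs in tumour 4 allow up to 5.30 CPM), against 0.0905 to 0.503 CPM in luminal cells. The endothelial values ranged more widely, and in tumour 2 a single cell gave 58 of the 64 UMIs. Over luminal cells the log2 fold change was 7.05 in macrophages (SE 0.50, adjusted p 2.49e-11) and 7.28 in endothelial cells (SE 0.61, adjusted p 1.16e-09). The endothelial value was 4.78 when each gene was counted without its highest cell, and macrophages were then the leading class. Macrophages over endothelial cells gave -0.23 (SE 0.46, adjusted p 0.783). The promoter of Cxcl10 is shown because, with that of Cxcl14, it was 1 of 2 among the 26 to hold GAAA, any 2 bases, GAAA, or its reverse complement TTTC, any 2 bases, TTTC, a core of interferon response elements, found in 978 of 32851 promoters (2.98%). It lies on the minus strand at chr5:92349060-92349119.
Cxcl10: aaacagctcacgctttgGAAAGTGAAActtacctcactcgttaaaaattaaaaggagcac
Cxcl9 was sparse, with 92 UMIs in all and its highest mean in endothelial cells at 7.39 ± 7.89 CPM. Cxcr3 was found in T cells at 24.5, 21.7, 34.8 and 17.8 CPM, from 22 UMIs, against 2 UMIs in 20581 luminal cells (adjusted p 4.67e-09, higher in 3 of 3 mice). Macrophages had 15 Cxcr3 UMIs, a mean of 2.07 ± 0.349 CPM.

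Cxcl12, the ligand that retains Cxcr4-bearing cells in stroma and marrow, had its highest levels in endothelial cells and fibroblasts. Endothelial cells held 556, 277, 164 and 203 CPM, a mean of 338 ± 194 CPM, and fibroblasts held 190, 197, 168 and 183 CPM, a mean of 187 ± 11.8 CPM. Luminal cells held 3.39 to 5.88 CPM. Of the cells in no gate, 8225 also failed the splits on mural, neutrophil, lymphocyte, MHC class II and myeloid genes. These held 487 Cxcl12 UMIs, 22.1% of the total, at 27.4 CPM. Endothelial cells were above fibroblasts in tumours 1, 2 and 4, and just below in tumour 3. The log2 fold change over luminal cells was 5.94 (SE 0.25, adjusted p 3.71e-15) in endothelial cells and 5.52 (SE 0.24, adjusted p 1.87e-15) in fibroblasts, and fibroblasts over endothelial cells gave -0.42 (SE 0.22, adjusted p 0.173). Basal cells held 14.3, 4.59, 15.7 and 11.5 CPM and rose over luminal cells (log2 fold change 1.55, SE 0.37, adjusted p 0.00914), which became 1.90 without the basal sum of mouse 2, 2.59 without luminal-positive cells and 0.55 without mouse 3, where the call was lost. In macrophages, with 0.617 to 4.12 CPM, the gene did not pass the test.

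The receptors of Cxcl12 were not abundant in these cells. Cxcr4 averaged 19.7 ± 7.75 CPM in macrophages and 19.2 ± 9.82 CPM in endothelial cells, against 3.97 ± 1.79 CPM in luminal cells. Both rose over luminal cells, by 2.59 (SE 0.24, adjusted p 2.75e-09) and 2.11 (SE 0.33, adjusted p 2.14e-05), and macrophages over endothelial cells gave 0.48 (SE 0.31, adjusted p 0.297). Cxcr4 fell in fibroblasts, with 7 UMIs in 1512 cells (-1.66, SE 0.50, adjusted p 0.00763), a call lost in the fit without the mouse block (adjusted p 0.105). Ackr3, which scavenges Cxcl12, had its highest mean in fibroblasts at 12.4 ± 5.94 CPM, against 0.968 ± 0.515 CPM in luminal cells, and did not pass the filter for testing.

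Cxcl14, a CXC ligand with no agreed receptor, was led by fibroblasts. They held 1018, 310.0, 806 and 361 CPM, with a Cxcl14 UMI in 54.6% of the cells, against 0.532 to 7.14 CPM and 0.646% of luminal cells. The 4 fibroblast values formed a high pair, tumours 1 and 3, and a low pair, tumours 2 and 4, and all lay above every other class of the same tumour. The log2 fold change over luminal cells was 8.02 (SE 0.42, adjusted p 1.05e-13). Basal cells held 209.9, 2.30, 80.3 and 22.0 CPM and rose by 4.43 (SE 0.46, adjusted p 5.08e-07), or by 4.78 without the basal sum of mouse 2. Fibroblast check markers in basal cells (143, 5.74, 397 and 40.5 CPM) were likewise higher in tumours 1 and 3 than in tumours 2 and 4, and their part in the basal level was not tested. Macrophages held 27.7 to 90.7 CPM and rose by 4.53 (SE 0.41, adjusted p 2.57e-09).

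Cxcl16 and Cx3cl1 are made as membrane-bound chemokines, with Cxcr6 on activated T cells and Cx3cr1 on monocytes and macrophages as receptors. Cxcl16 in macrophages was even across tumours, at 452, 469, 478 and 447 CPM, a mean of 462 ± 8.97 CPM, against 18.9 ± 1.71 CPM in luminal cells (log2 fold change 4.89, SE 0.19, adjusted p 2.37e-16). Macrophages held 61.2% of its UMIs and luminal cells 26.1%. Basal cells held 47.7, 68.9, 30.7 and 32.6 CPM (log2 fold change 1.26, SE 0.22, adjusted p 0.00042), or 0.93 without the basal sum of mouse 2, and this call was lost without luminal-positive cells (0.03, adjusted p 0.985). The part of the macrophage markers in basal cells given above was not tested. Cxcr6 was a T cell transcript at 42.8, 43.4, 82.3 and 71.2 CPM, from 53 UMIs, against 7 UMIs in all luminal cells (log2 fold change 9.19, SE 0.54, adjusted p 3.27e-12). It was seen in 12.7% of T cells and in 0.034% of luminal cells. The fibroblast call of Cxcr6 rested on 6 UMIs, all from mouse 3, and was lost without that mouse (-1.40, adjusted p 0.879).

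Cx3cr1 marked macrophages, with a UMI in 72.9% of them against 0.802% of luminal cells and 4.51% of T cells. Macrophages held 775, 625, 718 and 656 CPM, a mean of 697 ± 75.5 CPM, against 2.49 ± 1.15 CPM in luminal cells (log2 fold change 8.49, SE 0.24, adjusted p 7.88e-19), and held 90.2% of all Cx3cr1 UMIs. When each cell was thinned to 1000 UMIs the share of macrophages with a UMI was 49.2% and that of luminal cells 0.264%. Its ligand Cx3cl1 was low and spread over epithelium and stroma, at 23.9, 28.7, 31.3 and 41.4 CPM in basal cells and a mean of 20.9 ± 6.30 CPM in fibroblasts, against 16.6 ± 2.30 CPM in luminal cells. The rise in basal cells was small (log2 fold change 0.85, SE 0.21, adjusted p 0.0134) and missed the threshold in 6 of 14 alternatives, among them the fit without the basal sum of mouse 2 (adjusted p 0.0501) and the one without the mouse block (adjusted p 0.0841). Cx3cl1 fell in macrophages, to 6.35 ± 1.99 CPM (-1.21, SE 0.24, adjusted p 0.000258, or 0.0677 without mouse 3), and luminal cells held 70.7% of its UMIs. The fall in endothelial cells (-0.92, SE 0.34, adjusted p 0.0386) was lost in 8 of 14 alternatives.

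Xcl1, which attracts dendritic cells that bear Xcr1, was a lymphocyte transcript. T cells held 2680, 1883, 1450 and 1253 CPM, a mean of 1981 ± 655 CPM, against 1.57 to 4.94 CPM in luminal cells (log2 fold change 9.33, SE 0.27, adjusted p 6.36e-18). A UMI was found in 68.7% of T cells and 0.705% of luminal cells. Natural killer cells are a known source of Xcl1, and so the class was divided by Cd3d, Cd3e and Cd3g UMIs. The 334 cells with at least 1 held 1859.6 CPM, with Xcl1 in 70.1%, and the 21 without held 558 CPM. Cd3g is also a gate gene, so the gate largely set the sizes of these parts. The split therefore cannot separate T from natural killer cells. In the 334 cells the natural killer check markers Klrd1, Ncr1 and Eomes were found in 23.7%, 5.69% and 1.80%. Outside the gates, 86 cells with UMIs of the cytotoxic lymphocyte genes Nkg7 and Klrb1c held 2821 CPM, with Xcl1 in 75.6% of them, and Ccl5 at 563 CPM against 1220.5 CPM in the T cells with a Cd3 UMI. Among T check markers Lck was found in 26.7% of these 86 cells and Cd3d in 20.9%. Cd2 was found in 17.4%, Cd3e in 10.5% and Trac in 6.98%. Among natural killer check markers Klrd1 was found in 29.1%, Ncr1 in 27.9% and Eomes in 3.49%. The set is not named as a single cell type. Xcr1 had 9 UMIs in all cells, of which 7 lay in 4 ungated cells of high MHC class II.

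Ccl20, Ccl22 and Ccr7, which belong to the Ccr6, Ccr4 and lymph node homing axes, were barely detected at this depth. They had 36, 6 and 15 UMIs in all cells. Of the Ccl20 UMIs 17 lay in luminal cells and 6 in basal cells. Of the Ccr7 UMIs 7 lay in luminal cells and 2 in T cells.

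**Figure D4:**
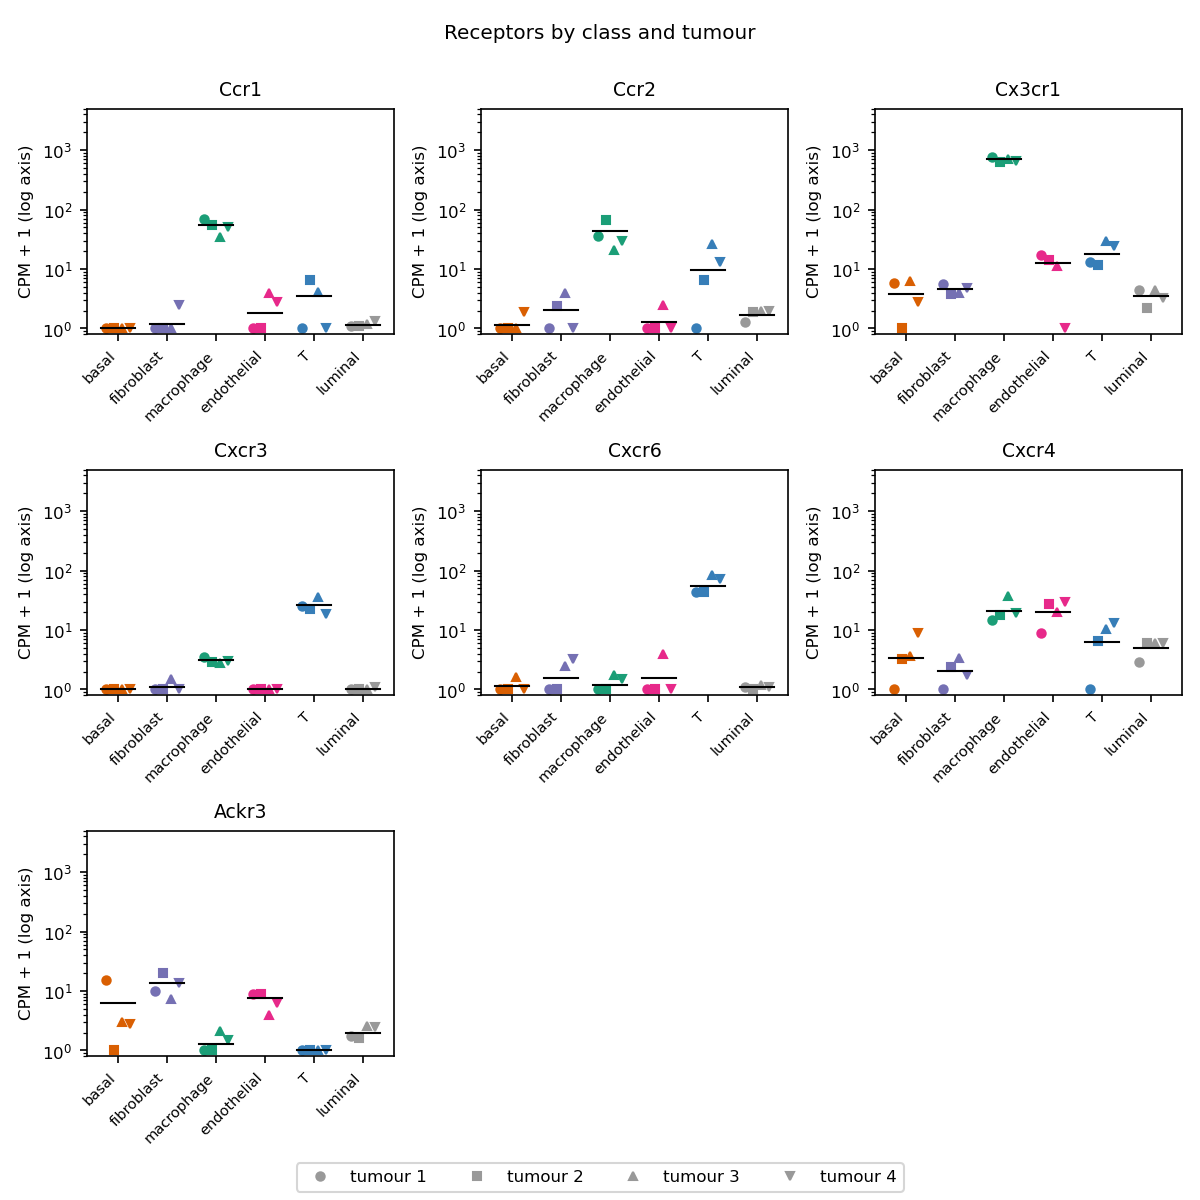
Levels of 7 receptors in each class, as CPM plus 1 on a log axis, with 1 symbol per tumour and a bar for the mean over 3 mice. Ccr1, Ccr2 and Cx3cr1 peak in macrophages, Cxcr3 and Cxcr6 in T cells, Cxcr4 has means of 19.7 CPM in macrophages and 19.2 CPM in endothelial cells, and Ackr3 reaches 12.4 CPM in fibroblasts.

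Cells outside the gates added a second source of some members. The 299 ungated cells with high H2-Aa and H2-Ab1, genes of MHC class II, were compared with the macrophage class in a fit of 5928 genes, chosen after their levels had been seen. Macrophage check markers were found in 5.69% (Adgre1) to 58.5% (Apoe) of them. Dendritic check markers were found in at most 1.67%, and luminal ones in 2.01% (Elf5) to 77.6% (Wfdc18). The set was defined by failing the C1qa and C1qb gate, so it cannot be told apart from macrophages low in these genes. Of the 18 list members tested 3 were higher and 8 lower (4 lower without mouse 3), where 4.57% and 4.52% of all genes were called. Ccl6 held 604, 1631, 761 and 1652 CPM in these cells, 2.83 above macrophages on the log2 scale (SE 0.15, adjusted p 3.44e-13). Ccl9 held 386, 672, 355 and 647 CPM, 2.52 above (SE 0.16, adjusted p 7.94e-12), and Ccr2 held 143, 315, 190.2 and 216 CPM, 2.54 above (SE 0.23, adjusted p 6.57e-09). All 3 were above the macrophages of the same tumour in each of the 4 tumours. Cx3cr1 was lower by a log2 difference of -2.49 (SE 0.19, adjusted p 3.90e-10), Ccl8 by -2.77 (SE 0.41, adjusted p 2.20e-05), Ccl12 by -1.98 (SE 0.35, adjusted p 0.000263) and Cxcl16 by -1.49 (SE 0.18, adjusted p 1.21e-06). Ccl3, Ccl4, Ccl5 and Cxcl14 were also lower. Cxcl2, at 1167 ± 336 CPM, did not pass the test (0.15, SE 0.12, adjusted p 0.557).

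**Figure D5:**
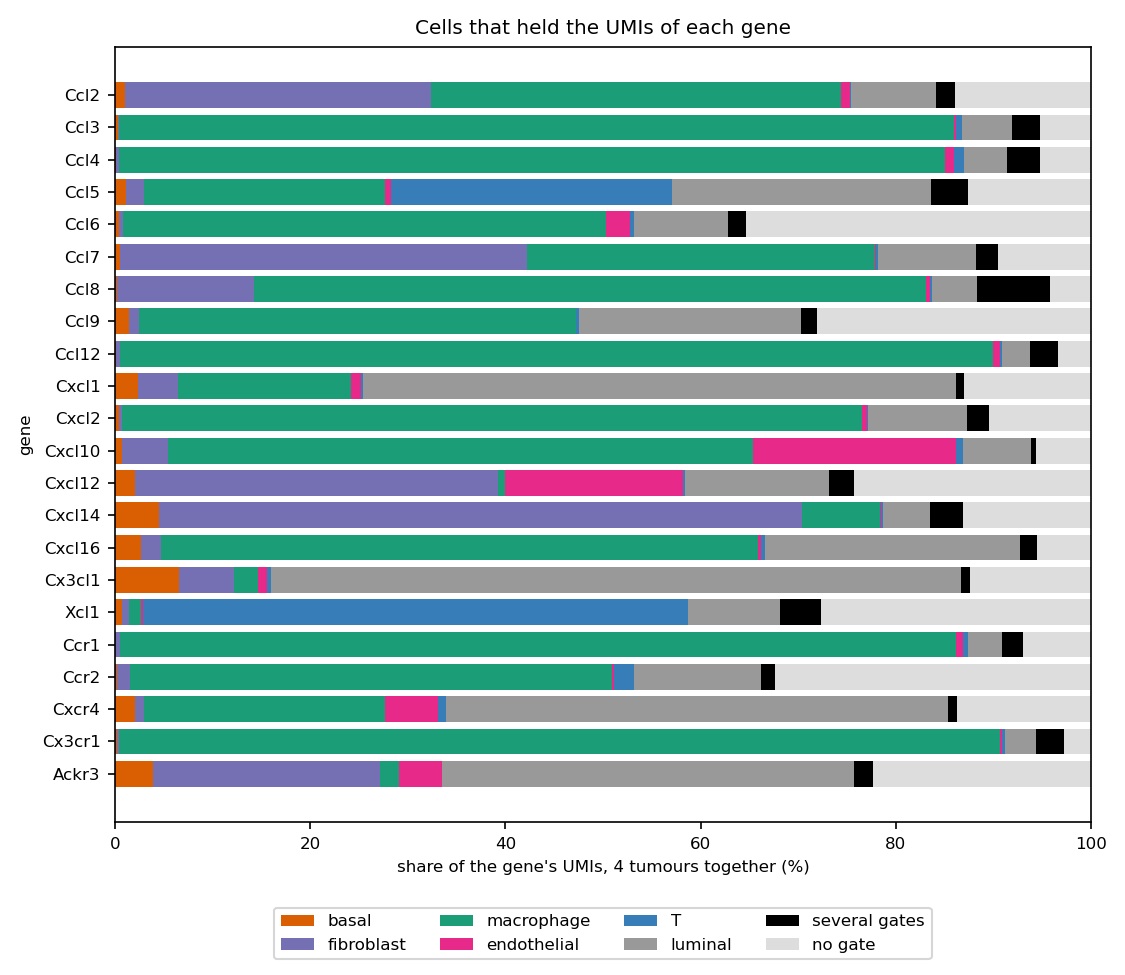
Share of the UMIs of each gene (x axis, percent, 4 tumours together) that lay in each class, in cells of several gates and in cells of no gate, for the 22 genes with at least 200 UMIs. Macrophages hold most UMIs of Cx3cr1 (90.2%) and Ccl12 (89.5%), luminal cells most of Cx3cl1 (70.7%) and Cxcl1 (60.7%), and cells of no gate 35.3% of Ccl6 and 32.3% of Ccr2.

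A list of 28 further chemokine-system genes put the 33 in context. Of these 9 could be tested against luminal cells, and 5 were higher in macrophages, 4 in fibroblasts, 4 in endothelial cells, 1 in T cells and 0 in basal cells, with 0 lower in any class. Ccrl2, an atypical receptor that binds chemerin, stood at 129 ± 31.4 CPM in macrophages (log2 fold change 4.63 over luminal cells, SE 0.19, adjusted p 1.10e-15), and Pf4, platelet factor 4, at 122 ± 28.3 CPM (7.07, SE 0.27, adjusted p 1.95e-16). Fibroblasts carried the eosinophil attractant Ccl11 at 171 ± 49.1 CPM (8.10, SE 0.39, adjusted p 1.47e-14) and the Ccr4 ligand Ccl17 at 33.1 ± 22.9 CPM (3.51, SE 0.42, adjusted p 2.36e-07). Ccl21a, a Ccr7 ligand with near-identical copies in the genome, averaged 589.7 ± 511 CPM in endothelial cells and had 0 UMIs there in mouse 1, which allows up to 23.8 CPM. Ccl27a held 281, 33.3, 29.4 and 23.8 CPM in basal cells of tumours 1 to 4, a mean of 114 ± 145 CPM. The high value came from the 96 basal cells of tumour 1, and the gene had 3737 UMIs in all cells. Ccl1 averaged 33.1 ± 30.9 CPM in T cells.

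The thoracic and inguinal tumours of mouse 3 give 1 library each, so their values are set side by side with no test. Of the members past 2-fold with a level of at least 50 CPM, Cxcl14 in fibroblasts stood at 806 CPM in the thoracic tumour (exact 95% Poisson interval 768 to 846) and 361 CPM in the inguinal tumour (329 to 395). Cxcl14 in basal cells stood at 80.3 CPM (66.7 to 95.8) in the thoracic and 22.0 CPM (14.3 to 32.5) in the inguinal tumour, where 36.9% of thoracic and 68.3% of inguinal basal cells passed the luminal gate. The fibroblast check markers of these basal cells stood at 397 CPM in the thoracic and 40.5 CPM in the inguinal tumour, and the part of either in the difference was not tested. Ccl5 in T cells stood at 1431 CPM (1302 to 1569) in the thoracic tumour and 569.9 CPM (462 to 696) in the inguinal one. The inguinal level came from 12 T cells with a Ccl5 UMI, of which 1 gave 35 of the 96 UMIs. Ccl7 in fibroblasts went the other way, with 32.6 CPM (25.3 to 41.4) in the thoracic tumour and 112 CPM (94.9 to 132) in the inguinal tumour. Ccl6 differed past the same limits in endothelial cells, through the single cell named above, and in T cells, from 1 and 9 UMIs. These intervals cover counting error only.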

How the data were processed

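The only values used were the deposited UMI counts of each gene in each cell. Per the submitters' processing notes the tools were FastQC and Cell Ranger 2.2.0 with mm10 (GRCm38), and the other settings are not given in the sources used here. A minimum of 300 genes removed 24 barcodes, and a limit of 15% on mitochondrial UMIs removed 0. Gates per cell were at least 3 UMIs (basal, luminal), 10 (fibroblast), 5 (macrophage) or 2 (endothelial, T) of the paired genes. The members and lists were chosen with earlier results of these data known.

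Counts were summed per mouse and class, both tumours of mouse 3 together, and tested with edgeR 4.0.16 in R 4.3.3 by its quasi-likelihood test, with TMM scaling, filterByExpr and a block for mouse. Benjamini-Hochberg adjustment ran over 10301 genes within each of 15 contrasts between classes, and calls were made at 0.05. Classes of 1 mouse come from the same animal, which gives the pairing. Their deviations from the class means had a median correlation of 0.181 across genes (45 pairs of classes, 0.0879 to 0.544). The class sums held 125882 UMIs or more per tumour. Levels per tumour are given for the 20 members with the highest class means, and means for the 8 highest of the 28 further genes, of which 1 is not reported here. Alternatives were RLE size factors, DESeq2 1.42.0, no filter, each mouse left out, no mouse block, 4 tumours as samples, doubled gates, mixed cells by gate order, and removal of luminal-positive cells or of the 5% deepest cells. Removal of the basal sum of mouse 2 and of the highest cell of each gene were added after seeing the data. Genes were located with GENCODE M21, and promoters are from RefSeq, GRCm38.p6, with entries for 26 of 33 members. Ccl2, Ccl4, Ccl5, Ccl7, Cxcl5, Cxcl16 and Ccr7 had none.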

Additional observations from a re-analysis of the deposited data

Results flagged for a closer look

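Ccl2 in fibroblasts stood at 614 CPM in tumour 2, far from the 131 to 173 CPM of the other 3 tumours. The gap to the nearest of them was 0.914 of the whole range, above Dixon's 95% critical value for 4 samples. Tumours 3 and 4 come from 1 mouse, so the 4 values are not from 4 animals and the limit is only a guide. The test was run on 20 members in their highest class, and chance flags about 1 in 20 such groups. In tumour 2 a Ccl2 UMI was present in 25.8% of 190 fibroblasts, against 7.34% to 10.8% in the other tumours, so the level did not rest on 1 cell.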

How the results depend on the processing

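Of the 50 calls of members against luminal cells, 33 kept their direction and their side of the threshold in each of the alternatives in which the gene was tested, out of 14. The 23 calls in the highest class of a member were kept in 313 of 319 refits, and the 6 lost were all Cx3cl1 in basal cells, whose adjusted p reached 0.534. The number of members higher than luminal cells moved by more than 1.5 times as follows. Without a filter it was 12 in endothelial and 13 in T cells. In basal cells it was 2 without the replicate block, 2 with doubled gates and 2 without luminal-positive cells. Assigning mixed cells by gate order gave 8 in basal cells, 15 in fibroblasts and 11 in endothelial cells. T cells had 13 without luminal-positive cells, and endothelial cells had 4 when each gene was counted without its highest cell. With each mouse left out in turn the number was 2 to 5 in basal cells, 4 to 9 in endothelial cells and 5 to 11 in T cells, the lowest each time without mouse 3. For the cells of high MHC class II over macrophages the number higher was 5 with no filter, and the number lower was 5 with no replicate block and 4 to 8 with a mouse left out, lowest without mouse 3. Members with 1 leading class numbered 16 to 18 throughout. The cause of these changes was not tested. Calls lost elsewhere are given in the report beside the gene, apart from Ccl12 in endothelial cells, Cx3cr1 in endothelial and T cells and Cxcl16 and Cxcl10 in fibroblasts. Not every setting is named there. The endothelial call of Ccl6 was also lost with DESeq2, without mouse 3, with doubled gates and without the 5% deepest cells. Doubled gates also lost Ccl9 in endothelial and Cxcl16 in basal cells. Cxcl12 in basal cells was also lost without the mouse block, and Ccl3 in T cells without its highest cell. Low counts kept 10 members from being tested. The p-values rest on the spread of class sums over 3 mice that the mouse block leaves, estimated in 1 fit of all 6 classes. They do not measure the spread between mice in a single class.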

Other observations

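The smaller sets of cells outside the gates carried list members too, given here as values with no comparison. In 18 cells with UMIs of the B cell genes Cd79a and Cd79b there were 24 Cxcl14 UMIs, in 12 of them and all in tumour 3. These cells also carried the fibroblast genes Col1a2 in 83.3% and Dcn in 77.8% and the mural gene Pdgfrb in 72.2%, so the set is not named as a cell type. In 195 cells with UMIs of the mural genes Rgs5 and Notch3 there were 50 Ccl2 UMIs, a level of 129 CPM, of which 38 lay in tumour 3. A further 130 cells with UMIs of the myeloid genes Lyz2 and Tyrobp held Cxcl2 at 575.5 CPM and Ccl6 at 284 CPM, with 166 and 82 UMIs.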
